A study of Mus musculus with 2 samples.

Results

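Heat shock proteins and their cochaperones were followed in organoids grown from mouse pituitary, in which 78 of 20647 listed genes belong to this group. Members were taken by gene name: the Hspa, Hspb, Hspd, Hspe, Hsph and Hsp90 genes, the J-domain genes (Dnaja, Dnajb and Dnajc), Bag1 to Bag6, the heat shock factor genes (Hsf) and Cryab. The endoplasmic reticulum genes Hspa5, Hsp90b1, Dnajb9, Dnajb11 and Dnajc3 were left out of the group. The names also took in 4 pseudogene rows and a few genes that are not classical chaperones, such as Hspb11, which encodes a part of the intraflagellar transport machinery, and Hsf2bp, known from meiosis.

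The study sequenced RNA of 1 cystic and 1 dense organoid culture. The cystic culture, at passage 2, was started from a male GHCre/iDTR mouse aged 10 weeks. The dense culture, at passage 4, was started from a male -/iDTR mouse of the same age. Both mice thus carried iDTR, the usual name of a diphtheria toxin receptor allele that Cre switches on, and GHCre, whose name refers to growth hormone, was listed for the cystic culture only. No toxin treatment is listed, and both cultures were kept in PitOM medium. Morphology, passage and mouse differed together, so these cannot be told apart. With 1 library of each kind there was no test between conditions, and all intervals below are 95% intervals for counting error only.

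Chaperones keep proteins folded. HSP70 proteins grip unfolded stretches of a client in a cycle driven by ATP, J-domain proteins bring the client and start ATP hydrolysis, and nucleotide exchange factors (HSP110 and BAG proteins) let the client go. HSP90 finishes the folding of kinases and steroid receptors, the mitochondrial chaperonin of HSP60 and HSP10 folds proteins in a closed chamber, and small heat shock proteins hold unfolded proteins without using ATP. The factor HSF1 induces many of these genes on heat or proteotoxic stress by binding heat shock elements, alternating GAA and TTC units, in their promoters. In epithelia, Hspb1 is also known as an actin-linked protein of differentiating keratinocytes.

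The promoters of Hspb1 and Hspb8, the 2 small heat shock protein genes at least 4-fold higher in the dense culture, are shown. The promoters of the stress-induced HSP70 pair Hspa1a and Hspa1b are shown beside them. They are examples of windows with and without an exact match of the 2-unit heat shock element given below. Imperfect units and bases further away were not searched. Whether heat shock elements have a part in the values below was not tested. Each line gives the 250 bases before the gene's start, from RefSeq on build GRCm38.p6, read along the gene's own strand, with capitals for a match of the 2-unit element GAANNTTC or TTCNNGAA. Hspb1 lies at chr5:135887669-135887918 (plus strand), Hspb8 at chr5:116422865-116423114 (minus), Hspa1a at chr17:34972157-34972406 (minus) and Hspa1b at chr17:34959239-34959488 (minus).
Hspb1: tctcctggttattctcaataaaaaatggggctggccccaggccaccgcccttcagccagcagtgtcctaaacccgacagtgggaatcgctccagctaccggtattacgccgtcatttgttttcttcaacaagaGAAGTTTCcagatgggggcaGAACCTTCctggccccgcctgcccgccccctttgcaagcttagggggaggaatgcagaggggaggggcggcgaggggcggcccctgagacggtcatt
Hspb8: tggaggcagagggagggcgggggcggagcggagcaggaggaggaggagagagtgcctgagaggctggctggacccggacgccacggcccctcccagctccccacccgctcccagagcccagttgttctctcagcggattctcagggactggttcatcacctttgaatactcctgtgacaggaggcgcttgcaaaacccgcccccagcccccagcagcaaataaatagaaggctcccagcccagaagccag
Hspa1a: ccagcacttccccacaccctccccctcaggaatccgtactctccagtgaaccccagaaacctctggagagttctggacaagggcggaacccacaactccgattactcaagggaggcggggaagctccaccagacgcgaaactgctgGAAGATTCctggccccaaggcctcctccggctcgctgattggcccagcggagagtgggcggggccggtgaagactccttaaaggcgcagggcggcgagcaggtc
Hspa1b: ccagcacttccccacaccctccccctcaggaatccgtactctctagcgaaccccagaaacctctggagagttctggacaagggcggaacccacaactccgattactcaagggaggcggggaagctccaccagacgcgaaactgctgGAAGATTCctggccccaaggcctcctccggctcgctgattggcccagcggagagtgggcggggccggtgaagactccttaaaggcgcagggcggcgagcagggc

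The Hspb1 window held 2 such elements, which begin 117 and 97 bases before the start, and the Hspb8 window held none. Hspa1a and Hspa1b held 1 element each at the same place, 104 bases before the start, and their windows differed at 3 of 250 bases. Hspb6, 3.09-fold higher in the cystic culture, held 1 element in 1 of its 2 windows, 120 bases before the start. No promoter is listed for Cryab. Both 2-unit elements read the same on either strand. Such an element was found, in any of a gene's windows, in 3932 of 27025 genes with a listed promoter (14.5%). It was found in 13 of the 57 members with a listed promoter (22.8%). These were 8 of 12 members on the list of heat-inducible genes (66.7%) and 5 of the 45 other members (11.1%). The 8 include Hspd1 and Hspe1, which share an element, and the near copies Hspa1a and Hspa1b. The 3-unit elements, GAANNTTCNNGAA and its reverse complement TTCNNGAANNTTC, each of which contains 2-unit elements, were found in 139 of all genes (0.514%) and in 3 members, Hspd1, Hspe1 and Dnajb6 (5.26%). Hspd1 and Hspe1 start next to each other on opposite strands and share the element, which is shown as the example of a 3-unit match. All 250 bases of the Hspe1 window and of the Hspd1 window with the element are annotated as exon. The run of adjoining units holds 2 overlapping 3-unit matches and spans 18 bases at chr1:55088059-55088076, read on the plus strand as for Hspe1.
Hspe1: TTCTAGAACCTTCCGGAA

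Values are the authors' normalized counts, that is reads divided by 1 size factor per library. The cystic library held 17247431 reads and the dense library 19258313 reads, and 1 read was worth 1.05 normalized counts for the cystic culture and 0.956 for the dense culture. A gene was compared when its mean over both libraries was at least 50, which 63 of the 78 members passed. The ratio is log2 of cystic over dense after 1 was added to each value, and at least 4-fold means a log2 ratio of 2 or more in size. The 2 cultures differed in cell identity as well. All 8 markers of basal and squamous epithelium were at least 4-fold higher in the dense culture, with a summed level of 1656 in the cystic culture and 557774 in the dense culture. Of 5 simple epithelial markers, 4 were at least 4-fold higher in the cystic culture, with a summed level of 94634 in the cystic culture and 11485 in the dense culture. Of 8 pituitary endocrine markers, 5 passed the filter, and all 5 were at least 4-fold higher in the cystic culture. The 8 summed to 4078 in the cystic culture and 718 in the dense culture, with Gh, the gene of growth hormone, at 1603 in the cystic culture and 276 in the dense culture. Among pituitary stem cell markers, Lhx3 had 164 reads in the cystic culture and none in the dense culture, and Pitx1 was at least 4-fold higher in the dense culture. No fibroblast, endothelial or leukocyte marker passed the filter. The part that cell identity has in the values below was not tested, and fewer cells of a type and less RNA per cell cannot be told apart in bulk RNA.

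Chaperone genes differed little in total and in most members. Together the 78 members took 0.745% (exact binomial interval 0.741 to 0.749) of all normalized counts in the cystic culture and 0.702% (0.698 to 0.706) in the dense culture. Among the 63 members past the filter, 1 was at least 4-fold higher in the cystic culture, where the share over all 11279 genes past the filter was 7.86%, and 2 were at least 4-fold higher in the dense culture, where that share was 7.65%. All 3 are small heat shock protein genes. In either direction this is 4.76% of members beside 15.5% of all genes.

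A 2-fold difference was passed by 8 members in favour of the cystic culture (15.7% of all genes) and by 3 in favour of the dense culture (15.6% of all genes). In either direction 31.3% of all genes did so. The other 52 members, or 82.5%, lay within 2-fold, as did 68.7% of all genes. The median log2 ratio was -0.0028 over members and -0.033 over all genes. Of the 63 members, 13 had a counting interval of the fold that holds 1. Of the other 50, 27 were higher in the cystic culture and 23 in the dense culture.

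**Figure D1:**
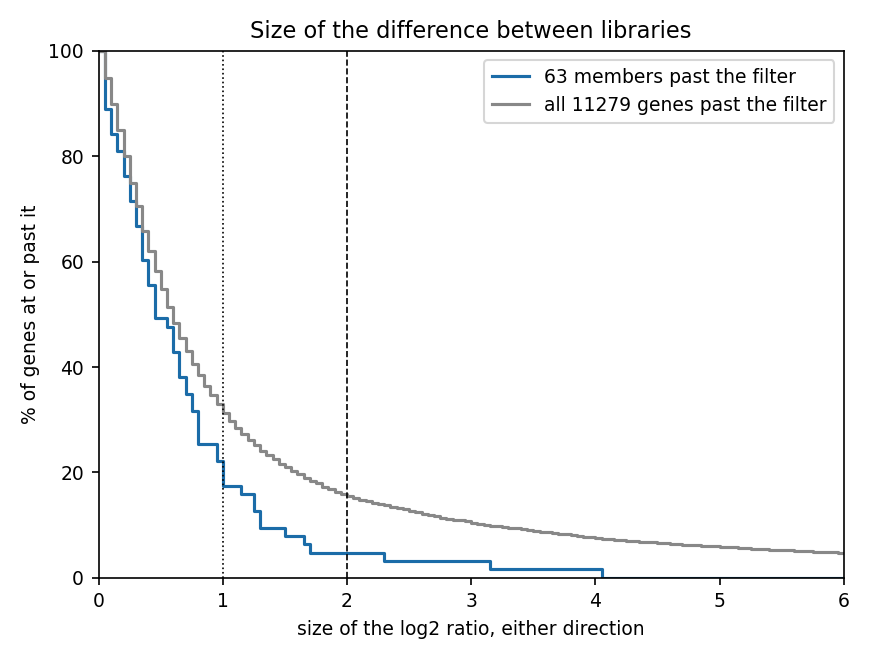
Share of genes (%, vertical axis) whose log2 ratio between the libraries is at least a given size in either direction (horizontal axis), for the 63 members and for all 11279 genes past the filter. Vertical lines mark 2-fold (dotted) and 4-fold (dashed), which 4.76% of members and 15.5% of all genes passed.

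Small heat shock protein genes split into one group higher in the cystic culture and another higher in the dense culture. Cryab (ENSMUSG00000032060), which encodes alpha B-crystallin, had 7598 normalized counts in the cystic culture and 472 in the dense culture, so it was 16.1-fold higher in the cystic culture (14.7 to 17.7). Hspb6, the gene of HSP20, had 136 in the cystic culture and 43.97 in the dense culture, 3.09-fold higher in the cystic culture (2.19 to 4.43). The Hspb6 exons overlap those of Proser3 on the opposite strand over 122 bases. Hspb2, whose product is known as a binding partner of the myotonic dystrophy kinase, stayed below the filter. It had 46.03 (44 reads) in the cystic culture and no read in the dense culture. That is 16.1-fold against a floor of 3 reads, a set value and not a counting bound.

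Hspb1 and Hspb8 ran the other way. Hspb1 (ENSMUSG00000004951), the gene of HSP25, had 1582 in the cystic culture and 7674 in the dense culture, 4.85-fold higher in the dense culture (4.59 to 5.13). Hspb8 (ENSMUSG00000041548), whose product works with BAG3 in the removal of misfolded proteins, had 56.5 in the cystic culture and 507 in the dense culture, 8.97-fold higher in the dense culture (6.77 to 12.1). Its partner gene Bag3 was level, with 2024 in the cystic culture and 2031 in the dense culture. Hspb11 had 83.7 in the cystic culture and 137 in the dense culture, and Hspb9, known from testis, had no read in the cystic culture and 3 reads in the dense culture.

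**Figure D2:**
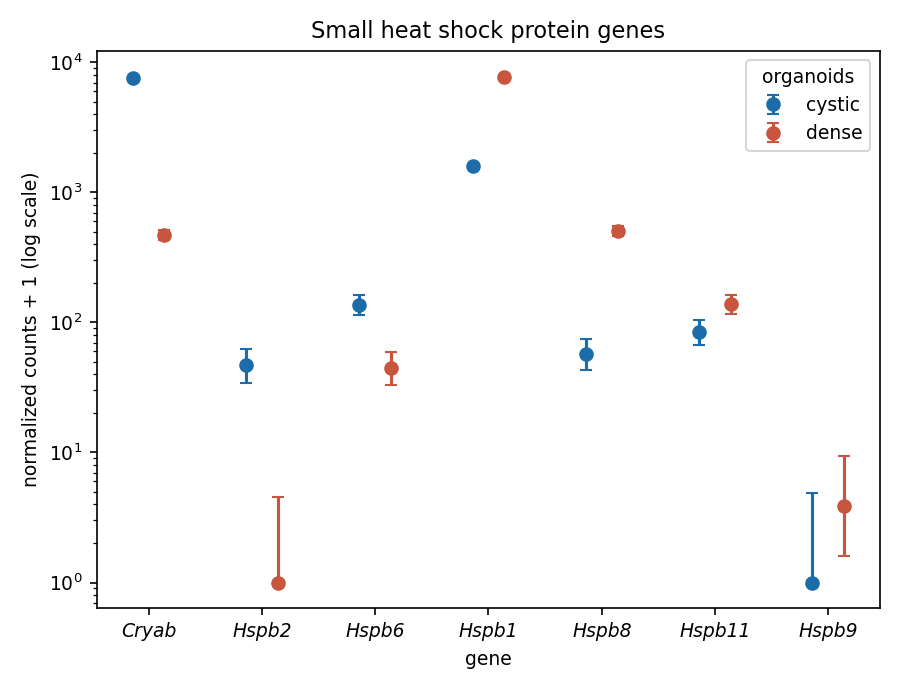
Level of the 7 small heat shock protein genes in the cystic (left point of each pair) and the dense library (right point), as normalized counts + 1 on a log scale, with 95% Poisson intervals for counting error. Cryab, Hspb2 and Hspb6 lie higher in cystic, Hspb1 and Hspb8 higher in the dense culture.

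These opposite differences left the class total nearly equal, since the 7 genes summed to 9502 normalized counts in the cystic culture and 8836 in the dense culture, a 1.08-fold difference (1.04 to 1.11). Per kilobase of exon, Cryab made up 74.9% of the class total in the cystic culture and 3.94% in the dense culture. Per kilobase, Hspb1 made up 22.4% in the cystic culture and 91.8% in the dense culture. Among all 78 members ranked by level per kilobase, Cryab was in place 2 in the cystic culture and place 22 in the dense culture, and Hspb1 in place 7 in the cystic culture and place 2 in the dense culture.

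Several facts of annotation touch these values. Hspb2 and Cryab are neighbours on opposite strands whose annotated exons overlap over 252 bases, and no source used here states a strand-aware count, so reads from that overlap cannot be assigned to either gene. Of the 50-base windows in annotated Hspb1 transcripts, 50.1% also occur in another annotated gene, mostly the pseudogene Hsp25-ps1, which had 5.23 in the cystic culture and 61.2 in the dense culture. Summing both rows, a choice made after the values were seen, left Hspb1 4.87-fold higher in the dense culture (4.61 to 5.15). No window of Hspb8 was shared.

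Cryab, Hspb2 and Hspb6 are also muscle genes, so muscle markers are given beside them. None of the 5 muscle markers passed the filter, and their summed level was 174 in the cystic culture and 1.91 in the dense culture. Acta1 had 97.3, Des 42.9 and Myog 32.4 in the cystic culture, against 0.956, no read and no read in the dense culture. Ckm had no read and Myh11 1 read in the cystic culture. The part of such cells in the Cryab, Hspb2 and Hspb6 values was not tested.

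Both HSP90 genes were somewhat higher in the cystic culture. Hsp90ab1, the constitutive cytosolic HSP90, had the highest level per kilobase of all members in both libraries, 9751 normalized counts per kilobase in the cystic culture and 7882 in the dense culture. In normalized counts it had 29242 in the cystic culture and 23637 in the dense culture, a 1.24-fold difference (1.22 to 1.26). Hsp90aa1, the stress-induced form, had 4253 in the cystic culture and 2196 in the dense culture, 1.94-fold higher in the cystic culture (1.84 to 2.04). Of the Hsp90aa1 windows, 47.5% occur in another gene, mostly the gene model Gm12346.

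HSP70 genes stayed within 2-fold in all 7 members past the filter. Hspa8, the constitutive cytosolic HSC70, had 12386 in the cystic culture and 9306 in the dense culture, 1.33-fold higher in the cystic culture (1.30 to 1.37). Of the Hspa8 windows, 39.4% occur in another gene, among them the gene model Gm15459. The stress-induced Hspa1b had 6111 in the cystic culture and 5209 in the dense culture and its near copy Hspa1a had 606 in the cystic culture and 677 in the dense culture. Both genes share over 62% of their windows, mostly with each other, so the split between them is uncertain, while their sum was 6716 in the cystic culture and 5885 in the dense culture, a 1.14-fold difference (1.10 to 1.18).

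Hspa9, the mitochondrial HSP70 mortalin, differed most in its class. It had 6856 in the cystic culture and 13051 in the dense culture, 1.90-fold higher in the dense culture (1.85 to 1.96). Hspa13, a microsomal HSP70, had 1523 in the cystic culture and 1038 in the dense culture. The ribosome-bound Hspa14 had 928 in the cystic culture and 1174 in the dense culture, and Hspa2, best known from testis, had 843 in the cystic culture and 794 in the dense culture.

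The mitochondrial chaperonin genes and Dnaja3 were closer to level than Hspa9. Hspd1, the gene of HSP60, had 3675 in the cystic culture and 4072 in the dense culture, and Hspe1, the gene of its lid HSP10, had 869 in the cystic culture and 1077 in the dense culture. In both, the dense value was the higher one, by 1.11-fold (1.06 to 1.16) and 1.24-fold (1.13 to 1.36). Of the windows, 42.1% for Hspd1 and 22.8% for Hspe1 occur in another gene. The exons of this pair overlap on opposite strands over 112 bases. Dnaja3, the mitochondrial J-domain gene, had 2306 in the cystic culture and 2585 in the dense culture.

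HSP110 genes, which exchange nucleotide on HSP70, were within 2-fold in all 3 members. Hsph1, the stress-induced form, had 2298 in the cystic culture and 1450 in the dense culture, 1.58-fold higher in the cystic culture (1.48 to 1.69). Hspa4 had 4027 in the cystic culture and 4560 in the dense culture, and the fold of Hspa4l, with 2700 in the cystic culture and 2752 in the dense culture, had an interval that holds 1.

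**Figure D3:**
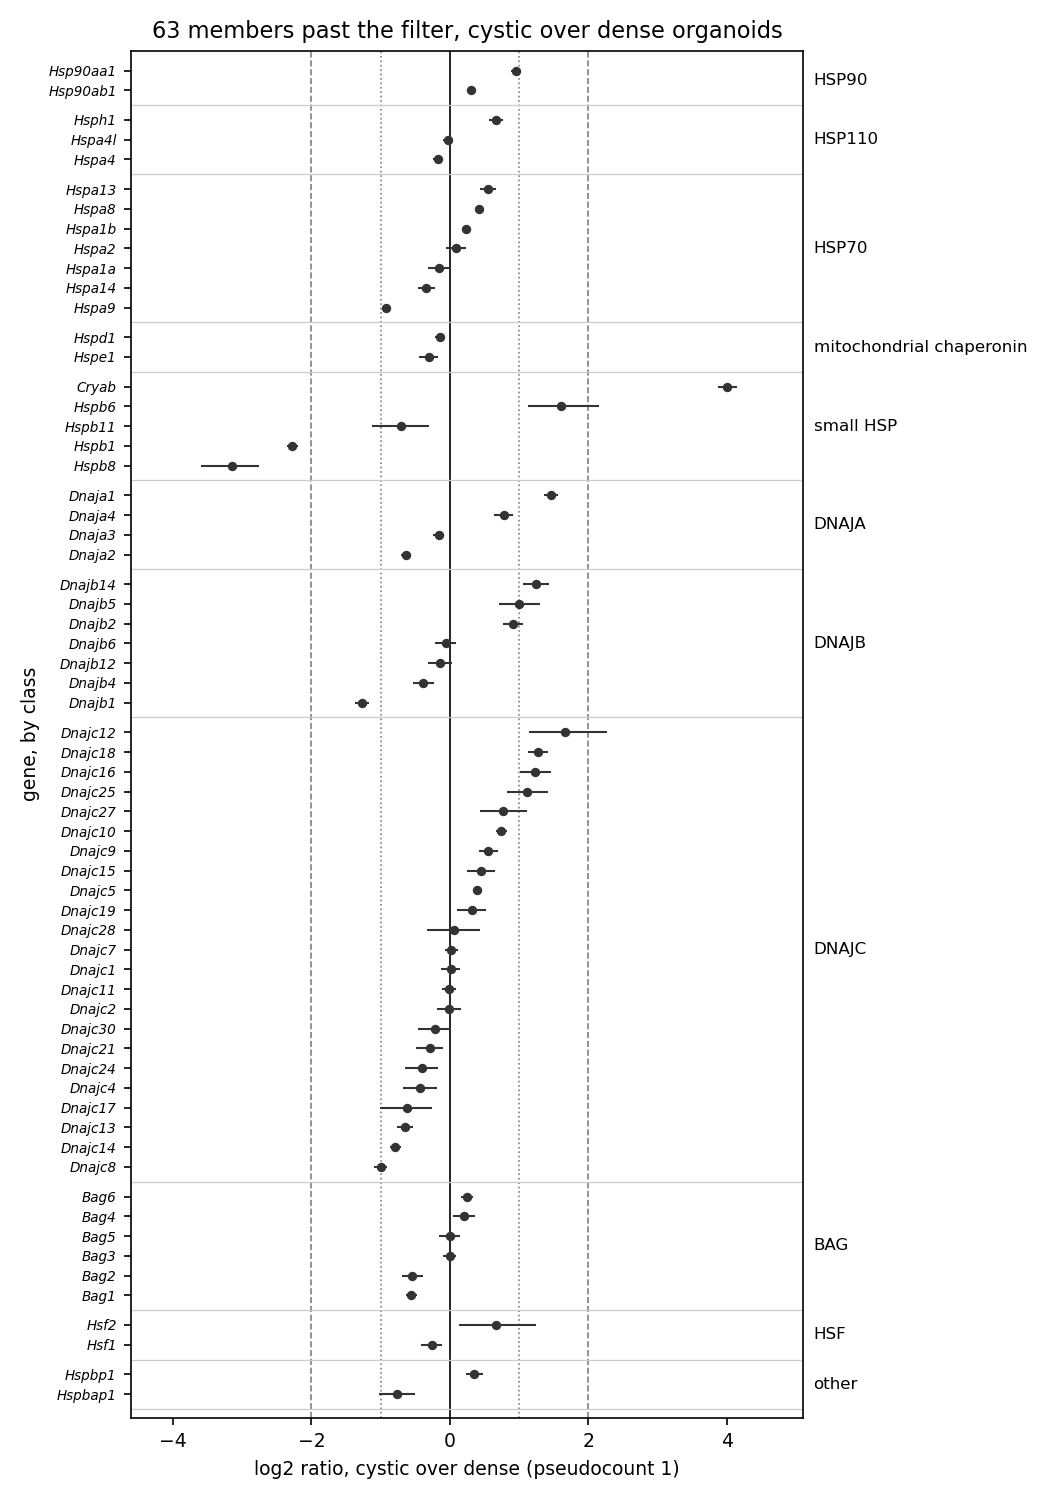
Log2 ratio of cystic over dense organoids (horizontal axis, positive when higher in cystic) for the 63 members past the filter, by class, with 95% counting intervals of the fold. Dotted and dashed lines mark 2-fold and 4-fold, and Cryab, Hspb1 and Hspb8 are the genes past the dashed lines.

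J-domain genes, the largest class with 38 members, included a pair of stress-induced cytosolic partners of HSP70 that differed in opposite directions. Dnaja1 had 2942 in the cystic culture and 1072 in the dense culture, 2.74-fold higher in the cystic culture (2.56 to 2.94). Dnajb1, the gene of HSP40, had 1148 in the cystic culture and 2777 in the dense culture, 2.42-fold higher in the dense culture (2.26 to 2.60). Of the Dnaja1 windows, 20.6% occur in another gene, and its exons overlap those of Smu1 over 608 bases, whereas for Dnajb1 that share was 0.412%. In the promoter search, 1 of 3 Dnaja1 windows held a 2-unit element, and 218 of the 250 bases of that window are annotated as exon. The other 2 Dnaja1 windows and both Dnajb1 windows held none. Of the Dnajb1 windows, 1 has 245 of its 250 bases annotated as exon and the other has 47.

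Of the 34 J-domain genes past the filter, 6 were at least 2-fold higher in the cystic culture (17.6%, near the 15.7% of all genes) and 1, Dnajb1, in the dense culture (2.94%, beside 15.6% of all genes). Besides Dnaja1, the genes higher in the cystic culture were Dnajb14, Dnajc12, Dnajc16, Dnajc18 and Dnajc25. Dnajb14 and Dnajc18 encode J-domain proteins of the endoplasmic reticulum membrane. Dnajb14 had 764 in the cystic culture and 322 in the dense culture, a 2.37-fold difference (2.08 to 2.71), and Dnajc18 had 1248 in the cystic culture and 517 in the dense culture, a 2.41-fold difference (2.18 to 2.68). Dnajb12, the close relative of Dnajb14, had 528 in the cystic culture and 585 in the dense culture. These relatives therefore did not share a ratio.

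Dnajc12, whose product assists the folding of phenylalanine hydroxylase and related enzymes, had the highest ratio among J-domain genes past the filter, with 117 in the cystic culture and 36.3 in the dense culture, 3.23-fold (2.21 to 4.79). Dnajc16 was 2.34-fold (2.01 to 2.74) and Dnajc25 2.17-fold (1.78 to 2.67) higher in the cystic culture. Dnajc8, known from the spliceosome, had 1342 in the cystic culture and 2683 in the dense culture, and Dnajb5 had 279 in the cystic culture and 140 in the dense culture. With 1 added to each value, both stayed just short of 2-fold, at log2 ratios of -0.999 and 0.996.

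Dnaja2, Dnajc5 and Dnajc10 had the highest mean normalized counts among J-domain genes, a ranking that also reflects transcript length. Dnaja2, a general HSP70 partner, had 3353 in the cystic culture and 5226 in the dense culture, 1.56-fold higher in the dense culture (1.49 to 1.63). Dnajc5, the gene of the vesicle protein CSP-alpha, had 4212 in the cystic culture and 3209 in the dense culture. Dnajc10, which encodes a disulfide reductase of the endoplasmic reticulum, had 3413 in the cystic culture and 2043 in the dense culture, 1.67-fold higher in the cystic culture (1.58 to 1.76).

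Further J-domain genes past the filter were all within 2-fold. Dnajc7, a partner of both HSP70 and HSP90, had 1720 in the cystic culture and 1694 in the dense culture, and the ribosome-bound Dnajc2 had 564 in the cystic culture and 570 in the dense culture. The chaperone gene Dnajb6, known for holding back aggregation of polyglutamine proteins, had 706 in the cystic culture and 736 in the dense culture, and Dnajb4 had 601 in the cystic culture and 783 in the dense culture. Dnajb2, a chaperone gene enriched in neurons, had 1121 in the cystic culture and 598 in the dense culture, 1.87-fold higher in the cystic culture (1.70 to 2.07). Endosomal Dnajc13 had 1086 in the cystic culture and 1699 in the dense culture, 1.56-fold higher in the dense culture (1.45 to 1.69).

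BAG genes were within 2-fold in all 6 members. Bag1, an HSP70 nucleotide exchange factor that also binds BCL2, had 2252 in the cystic culture and 3313 in the dense culture, 1.47-fold higher in the dense culture (1.39 to 1.55). Bag6, a factor in handling of tail-anchored proteins, had 2371 in the cystic culture and 1989 in the dense culture. Bag2 had 622 in the cystic culture and 907 in the dense culture, Bag4 had 701 in the cystic culture and 609 in the dense culture, and Bag5 had 737 in the cystic culture and 738 in the dense culture. Hspbp1, another exchange factor of HSP70, had 1318 in the cystic culture and 1032 in the dense culture. Hspbap1, named for a protein that binds HSPB1, had 198 in the cystic culture and 336 in the dense culture, 1.70-fold higher in the dense culture (1.42 to 2.04), and its exons overlap those of Gm26838 on the opposite strand over 430 bases.

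Among the heat shock factor genes, Hsf1, the main regulator of the heat shock response, had 660 in the cystic culture and 791 in the dense culture, 1.20-fold higher in the dense culture (1.08 to 1.33). Hsf2 was low, with 73.2 in the cystic culture and 45.9 in the dense culture, and Hsf4, the factor of the lens, had 1 read in the cystic culture and none in the dense culture. The 16 genes on the list of heat-inducible genes all passed the filter. Their median log2 ratio was -0.016, beside -0.033 over all genes, with 2 at least 2-fold higher in cystic (Cryab and Dnaja1) and 3 in the dense culture (Hspb1, Hspb8 and Dnajb1). These 5 are 31.25% of the list, about the 31.3% of all genes past 2-fold, and the 3 past 4-fold are 18.75%, beside 15.5% of all genes. The list took 0.433% of normalized counts in the cystic culture and 0.357% in the dense culture. Most of that came from Hsp90ab1 and Hspa8, which are also abundant without stress and summed to 41628 normalized counts in the cystic culture and 32943 in the dense culture. Without this pair, a choice made after the values were seen, the list took 0.202% in the cystic culture and 0.178% in the dense culture, with a median log2 ratio of -0.088. For 3 of them, Bag3, Hspa1a and Hspa4l, the counting interval of the fold held 1.

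**Figure D4:**
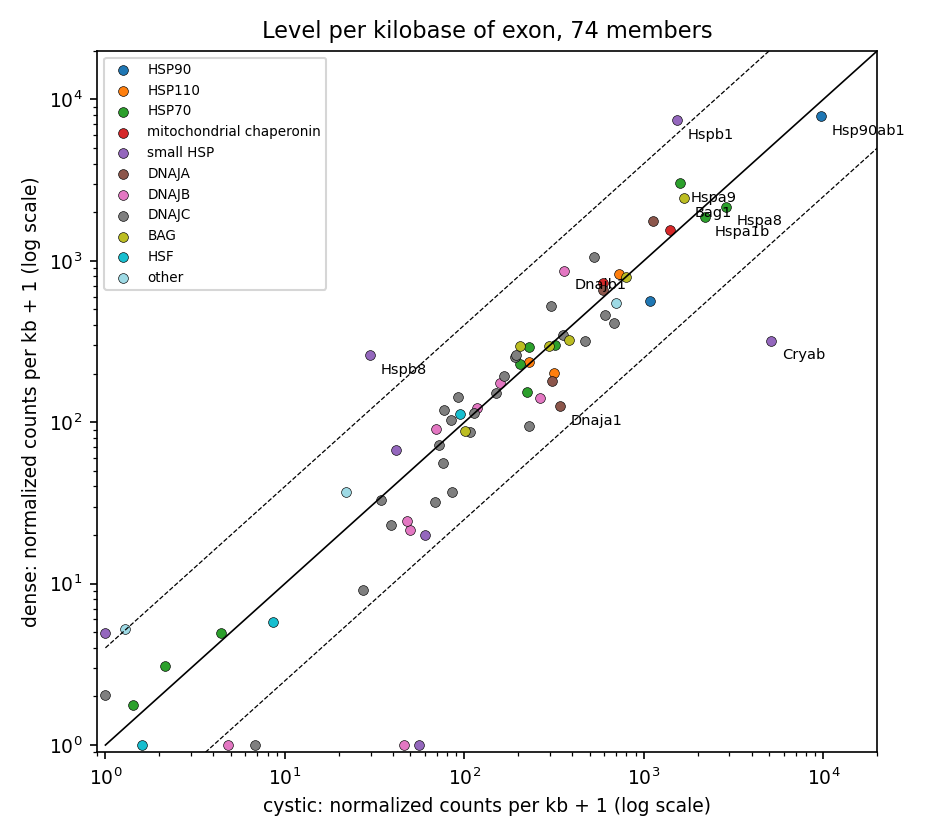
Level per kilobase of exon, as normalized counts per kilobase + 1 on log scales, in the cystic (horizontal) and the dense library (vertical) for the 74 members other than pseudogene rows, coloured by class. The solid line marks equal levels and the dashed lines 4-fold, and among genes above 100 normalized counts per kilobase in either library, Cryab, Hspb1 and Hspb8 lie outside the dashed lines.

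Of the 15 members below the filter, 4 were pseudogene rows and 11 were genes. Dnajb3 had 47.1 (45 reads) in the cystic culture and no read in the dense culture, 16.4-fold against the set floor of 3 reads. Dnajc6, the gene of auxilin, which strips clathrin from vesicles, had 34.5 in the cystic culture and no read in the dense culture. That is 12.04-fold against the same floor. Dnajb13, known from the sperm tail and motile cilia, had 10.5 in the cystic culture and no read in the dense culture. That is 3.65-fold against the same floor. The Dnajb13 exons overlap those of Ucp2 on the opposite strand over 305 bases, and the part of Ucp2 in these reads was not tested. Hsf2bp went the other way, with 1 read in the cystic culture and 16 in the dense culture. The HSP70 relatives Hspa12a, Hspa12b and Hspa1l had 31.4, 4.18 and 1.05 in the cystic culture and 36.3, 7.65 and 1.91 in the dense culture.

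**Figure D5:**
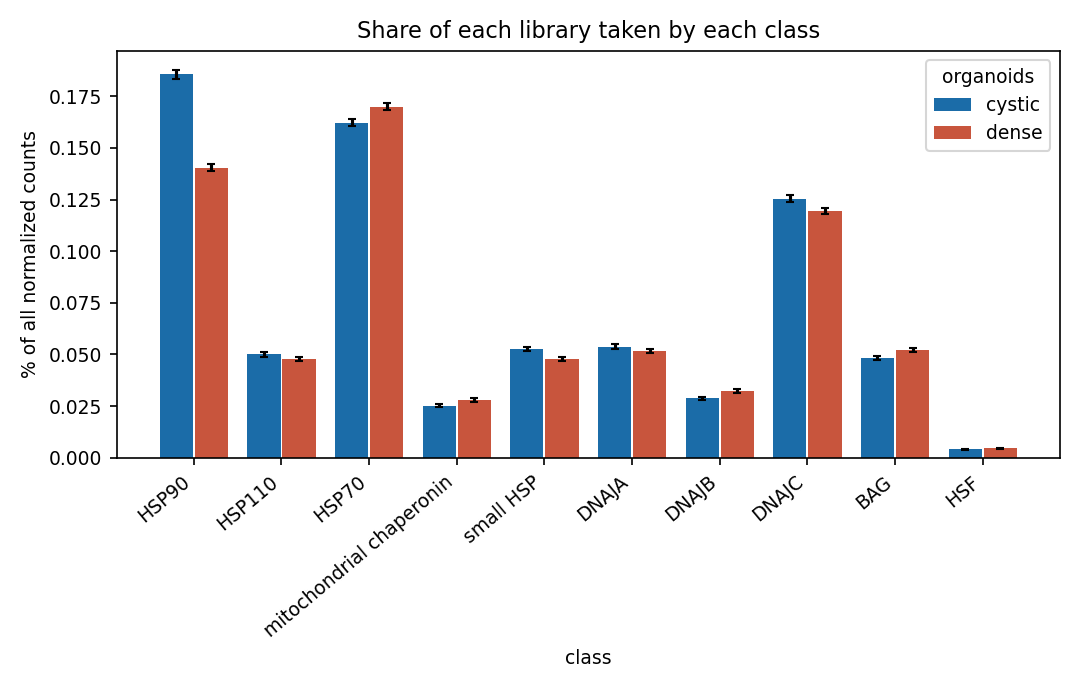
Share of all normalized counts (%) taken by each class in the cystic (left bar) and the dense library (right bar), with 95% exact binomial intervals for counting error. The HSP90 genes took 0.186% in the cystic culture and 0.140% in the dense culture.

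Of the related lists outside the group, 3 lay within 2-fold. None of 8 CCT chaperonin genes, 6 prefoldin genes and 17 cochaperone genes of HSP90 and HSP70 was 2-fold different, while 31.3% of all genes were. The CCT list, which folds actin and tubulin, had a median log2 ratio of -0.18. Its highest ratio was 0.24 at Cct3 and its lowest -0.70 at Cct4, with 2941 in the cystic culture and 4771 in the dense culture. Cct5 had the highest mean, with 5104 in the cystic culture and 5939 in the dense culture. The prefoldin list, which hands clients to CCT, had a median of -0.31, and all 6 members were lower in the cystic culture, from -0.46 at Vbp1 to -0.13 at Pfdn1.

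HSP90 and HSP70 cochaperones had a median log2 ratio of 0.11. The highest ratio was that of Tomm34, with 995 in the cystic culture and 503 in the dense culture, and the lowest that of Ppid, with 1164 in the cystic culture and 1520 in the dense culture. Fkbp4, an immunophilin of steroid receptor complexes, had the highest mean, with 5633 in the cystic culture and 4843 in the dense culture. Mitochondrial chaperones and proteases, 8 genes, had a median of -0.59. Of these, 1 was at least 2-fold higher in the dense culture (12.5%, beside 15.6% of all genes). It is Grpel2, which encodes a nucleotide exchange factor of mortalin. Grpel2 had 1244 in the cystic culture and 2684 in the dense culture, a log2 ratio of -1.11. The protease gene Htra2 had 173 in the cystic culture and 336 in the dense culture, a log2 ratio of -0.96. The highest ratio was 0.28 at the protease gene Clpp, and Lonp1, a matrix protease gene with the highest mean of the list, had 1702 in the cystic culture and 2452 in the dense culture. Grpel1, the relative of Grpel2, had 1698 in the cystic culture and 1434 in the dense culture.

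The 5 endoplasmic reticulum genes left out of the group had a median of -0.26. Among them, 1 was at least 2-fold higher in the dense culture (20%, beside 15.6% of all genes). That gene is Hspa5, which encodes BiP, with 26900 in the cystic culture and 83236 in the dense culture, a log2 ratio of -1.63. Hsp90b1, the gene of the HSP90 of the endoplasmic reticulum, had 27608 in the cystic culture and 44445 in the dense culture, a log2 ratio of -0.69. Dnajb9, a J-domain partner of BiP, had 737 in the cystic culture and 661 in the dense culture. Of 10 immediate early genes, which respond with the heat shock genes when tissue is dissociated, 9 passed the filter, with a median of -0.60. Of the 9, 1 was at least 4-fold higher in the dense culture (11.1%, beside 7.65% of all genes). It is Atf3, with 23.0 in the cystic culture and 104 in the dense culture. Dusp1 had the highest ratio, with 2102 in the cystic culture and 1175 in the dense culture. Junb, with the highest mean of the list, had 7009 in the cystic culture and 15910 in the dense culture. The part of handling stress in the chaperone values was not tested.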

How the data were processed

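RNA of 1 cystic and 1 dense organoid culture went through Smart-seq v4 amplification and an NEBNext library kit, per the labels' protocols. The authors deposited a signal of normalized counts per gene. TopHat, DESeq 1.32.0 and mm9 were used, per the submitters' processing notes, with no counter or annotation named. Each column held whole multiples of its smallest value above 0 (100% of values within 0.001 read), so reads were recovered. Of 20649 rows, 2 spike-in rows were left out. No molecular identifiers are named, so PCR copies may be counted. The intervals treat each read as an independent draw, so they are too narrow where reads are copies of 1 molecule.

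Fold intervals are exact Clopper-Pearson and level intervals exact Poisson, at 95%, and a fold against 0 reads uses 3 reads in that library. Exon lengths, overlaps and shared 50-base windows came from GENCODE M21 (GRCm38), which holds all 78 members. Promoters came from RefSeq (GRCm38.p6), and 57 members matched by symbol. Named by rule are members past 4-fold, the heat-inducible list and the 2 most abundant per class. Of related lists, the highest and lowest ratio and the highest mean are named. Other genes named by value, among them those near 2-fold or below the filter, were chosen after their values were seen, as were the promoters printed and the alternatives on shared reads. Members and lists were chosen with earlier results of these data known. The ratio and interval steps were tested on simulated counts. Python 3.11.15, scipy 1.17.1 and, for scaling, edgeR 4.0.16 in R 4.3.3 were used.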

Additional observations from a re-analysis of the deposited data

How the results depend on the processing

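The counts past 4-fold and 2-fold and the list medians were recomputed with pseudocounts of 10 and 50, other filters, scaling by total reads, by the upper quartile and by TMM, and with whole counting intervals past the fold. With a pseudocount of 50, members at least 2-fold higher in the cystic culture numbered 5. The log2 ratios of Hspb6, Dnajc12 and Dnajc25 then fell to 0.99, 0.95 and 0.90. That count was 6 with a filter at a mean of 200, 9 under each other scaling and 7 with whole intervals. The other counts past 2-fold and 4-fold stayed the same in these settings. With no filter beyond a read in a library, 5 members were at least 4-fold higher in the cystic culture and 4 in the dense culture, and at 2-fold the counts were 13 for the cystic and 7 for the dense culture. Past 4-fold in either direction were then 11.5% of members and 22.4% of all genes. The mean log2 ratio of members was 0.108 in place of a median of -0.0028. Among the 48 members with under 10% of their windows shared, an alternative chosen after the data were seen, 0 were at least 4-fold higher in the cystic culture and 1, Hspb8, in the dense culture, since Cryab and Hspb1 share more. That count is smaller by construction, because fewer genes enter it. The counts without the filter are larger because the members below it also enter. The mean weighs the size of each ratio, from -3.14 at Hspb8 to 4.01 at Cryab, and the median does not. Without Hsp90ab1 and Hspa8, a choice also made after the data were seen, the median of the heat-inducible list was -0.088 in place of -0.016. Ratios were recomputed for all 63 members past the filter under the pseudocounts and scalings and, for Hspb1, Hspa1a and Hspa1b, with summed reads. Of these 318 ratios, 305 kept their sign, among them all 56 of the 11 members past 2-fold. Those that changed sign were ratios of Bag3, Bag5, Dnajc2, Dnajc11 and Hspa4l under other scalings and of Hspa1a, at -0.16, when summed with Hspa1b, at 0.19. The scalings shift all ratios nearly alike and moved the median of all genes by at most 0.029. That is too little to change the sign of a ratio past 2-fold. A pseudocount added to both values cannot change a sign. For members past 2-fold, the kept signs under these settings were therefore fixed in advance and are no test of the ratios. No paired analysis was possible because each condition has 1 library, and leaving out a library was not possible for the same reason.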
